A study of Mus musculus with 8 samples.

Results

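The genes described here are 8 receptors for chemokines, of which Ccr1, Ccr2, Cxcr3, Cxcr4 and Cxcr6 signal and Ackr1, Ackr2 and Ackr3 are atypical or decoy receptors. They were chosen by name out of 54752 genes in the deposited tables, with earlier results of these data known. Of the 8, 6 were among the 17136 genes abundant enough to be tested. Cxcr3 and Cxcr6 fell below the filter on low counts and are given by their counts. RNA-seq was performed on the right cerebral cortex of wild-type (WT) C57BL/6 mice, 4 after a sham operation and 4 after bilateral carotid artery stenosis (BCAS), 3 weeks after surgery. All were adult males, and each library held the tissue of a single mouse. In BCAS, a microcoil is wound around each common carotid artery to lower the blood flow to the brain, here with a narrower coil on the right than on the left, so the sampled cortex lay on the more narrowed side. Sham mice carried no coil. The question was how gene expression in the cortex differed under this hypoperfusion.

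Chemokines are small secreted proteins that guide the movement of cells. A signalling receptor couples to an inhibitory G protein, is then phosphorylated and bound by an arrestin, and drives migration towards the source of its ligand. Atypical receptors bind chemokines without coupling to these G proteins and transport or degrade the ligand, and so shape its gradient. In the brain, chemokine receptors are known on microglia, on monocytes and lymphocytes that enter from the blood, and on the endothelium of vessels.

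Total counts ran from 16759364 to 21794435 per library, and 3 counts, the most that a count of 0 allows, correspond to 0.179 counts per 1000000 (CPM) in the smallest library. Sham 3 stood apart in transcripts of the choroid plexus, with 12169 counts of Ttr, the transthyretin gene of that epithelium, against 128 to 814 in the other 7 libraries. Leaving out BCAS 2 gave more calls than leaving out any other mouse, 2967 genes against 2097 with all 8 mice. The labelled cortex was checked against 10 neuron markers, all of which were tested, and Snap25, a synaptic vesicle fusion gene, stood at 3214 CPM in sham and 1534 CPM in BCAS mice. It was the 1 neuron marker of the 10 called lower and had the lowest log2 fold change among them (-1.07), with a median of -0.74 over the list and 0.015 for Gad2, which makes the transmitter GABA. The summed level of these markers, as log2 relative to the sham mean, lay between -1.44 and -0.36 in the BCAS mice and between -0.12 and 0.09 in the sham mice. In bulk tissue, fewer cells of a type and less RNA per cell cannot be told apart, which holds for every level below.

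Most of these receptors lie on chromosomes 9 and 1 of the mouse genome (build mm10). On chromosome 9, Cxcr6 (123806475 to 123811760), Ccr1 (123962124 to 123968692) and Ccr2 (124101950 to 124113557) stand in a cluster with Xcr1, Ccr1l1 and Ccr3. Ackr2 (121898355 to 121911074) is on the same chromosome, 1767365 bp from the next receptor gene, Ccr9. Cxcr4 (128588199 to 128592293), Ackr1 (173331886 to 173333750) and Ackr3 (90203980 to 90216751) are on chromosome 1 and Cxcr3 (101731535 to 101734269) is on chromosome X. Ackr1 shares 361 of its exon bases, or 25.7%, with Cadm3, a neuronal adhesion gene on the same strand, so reads there cannot be assigned surely. Cxcr6 lies inside the span of Fyco1 on the opposite strand with 0 shared exon bases, and no other receptor of the 8 overlaps a gene.

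The 250 bases before the RefSeq start site (build GRCm38.p6) were read for all 8 genes, to show what lies upstream of receptors that rose, fell or held their level. They are printed for the 4 genes whose window lies wholly outside the annotated gene: Ccr1 (chr9:123968693-123968942, minus strand), Cxcr4 (chr1:128592300-128592549, minus strand), Ackr2 (chr9:121898105-121898354, plus strand) and Ackr3 (chr1:90203730-90203979, plus strand). Each is written 5′ to 3′ along the gene, and capitals mark every match to the motifs named in the next paragraph, on either strand.
Ccr1: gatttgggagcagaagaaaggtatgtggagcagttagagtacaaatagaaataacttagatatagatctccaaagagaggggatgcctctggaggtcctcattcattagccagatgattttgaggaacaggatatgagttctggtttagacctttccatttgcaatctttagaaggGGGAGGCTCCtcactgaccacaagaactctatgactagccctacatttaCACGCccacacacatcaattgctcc
Cxcr4: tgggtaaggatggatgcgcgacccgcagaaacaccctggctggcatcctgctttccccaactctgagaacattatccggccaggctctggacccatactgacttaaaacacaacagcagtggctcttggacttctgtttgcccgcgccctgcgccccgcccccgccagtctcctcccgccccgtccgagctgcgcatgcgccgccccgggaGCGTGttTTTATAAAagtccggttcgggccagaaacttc
Ackr2: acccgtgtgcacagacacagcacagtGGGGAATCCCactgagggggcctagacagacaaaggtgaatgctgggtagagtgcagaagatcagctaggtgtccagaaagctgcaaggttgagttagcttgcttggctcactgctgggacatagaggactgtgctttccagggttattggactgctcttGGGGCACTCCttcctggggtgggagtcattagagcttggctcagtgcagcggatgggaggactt
Ackr3: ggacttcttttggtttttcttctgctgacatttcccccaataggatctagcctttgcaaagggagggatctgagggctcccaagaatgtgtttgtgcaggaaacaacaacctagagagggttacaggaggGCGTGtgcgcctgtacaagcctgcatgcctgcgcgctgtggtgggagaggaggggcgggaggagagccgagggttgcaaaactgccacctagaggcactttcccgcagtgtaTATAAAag

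Of 9 motifs searched on both strands, 5 matched in a window of the 8 genes. The hypoxia response core GCGTG, present in 28.21% of the 27025 windows of all genes, was found in those of Ccr1, Cxcr3, Cxcr4 and Ackr3. In the Cxcr4 window it lies 39 to 35 bases before the start, next to a TATA box (TATAAA, in 12.97% of all windows) at 30 to 25 bases, whose reverse match TTTATA overlaps it. Ackr3 also holds a TATA box, 8 to 3 bases before its start. The NF-kappaB consensus, present in 7.01% of all windows, matched in Ccr1 at 74 to 65 bases and in Ackr2 at 224 to 215 and 64 to 55 bases, the former on both strands. The PU.1 box GAGGAAGT (2.44%) matched in Cxcr3 and the GATA site AGATAA (10.25%) in Ccr2. No window of the 8 held the core of the interferon-stimulated response element (GAAA, any 2 bases and GAAA, 3.04%), the gamma-activated site (TTCNNNGAA, 7.18%), the AP-1 site (TGANTCA, 6.87%) or the hypoxia core in its form ACGTG (16.57%). These matches describe letters in a window and are no evidence of binding. The Cxcr4 window was rich in G and C, at 61.2% with 19 CG dinucleotides, against a median of 52.0% and 6 over all windows, whereas the Ccr1 window had 43.6% and 1.

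Among the 6 tested receptors, Ccr1, Ccr2 and Cxcr4 rose in BCAS mice, Ackr2 fell, and Ackr1 and Ackr3 were not called. A call required a Benjamini-Hochberg adjusted p under 0.05 over all tested genes by edgeR's quasi-likelihood test, together with a log2 fold change above 1 or below -1. Thus 3 of 6 were called higher, where 11% of all tested genes were, and 1 of 6 was called lower, where 1.28% were. On the adjusted p alone 5 of 6 passed, where 32% of all tested genes did. The median log2 fold change of the 6 was 1.24, and that of all tested genes was -0.01. Ccr1 and Ccr2 passed the filter through the BCAS mice, where they are high, so these shares and the median are descriptions and no support. With at least 10 counts required in every library, 4 receptors were tested, of which Cxcr4 was called higher and Ackr2 lower. For 4 of the 8 receptors, Ccr2, Cxcr4, Cxcr6 and Ackr2, the 4 BCAS mice did not overlap the 4 sham mice. BCAS was the higher group for 3 of them and the lower for Ackr2. Of the 6 tested receptors, 3 did not overlap, since Cxcr6 was not tested. Over all tested genes, 34.8% did not overlap, 18.4% with BCAS higher and 16.4% with BCAS lower.

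**Figure D1:**
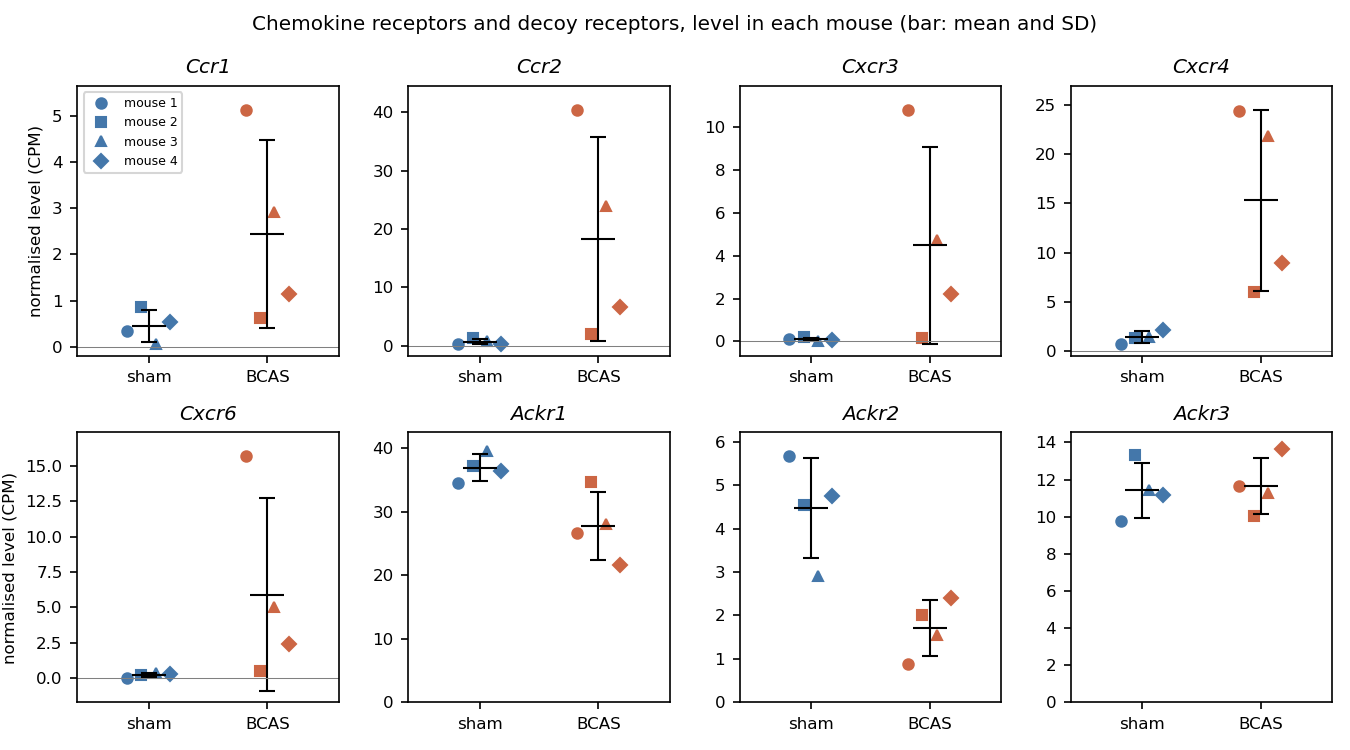
Normalised level in CPM (vertical axis, linear, a separate scale for each gene) of the 8 receptors in 4 sham (blue) and 4 BCAS (red) mice, with a marker shape for each mouse number and a bar for the mean and SD. BCAS 1 is the highest and BCAS 2 the lowest BCAS mouse for Ccr1, Ccr2, Cxcr3, Cxcr4 and Cxcr6, while Ackr3 covers the same range in both groups and Ackr2 is lower in every BCAS mouse.

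Ccr2 (ENSMUSG00000049103.14), the receptor that draws inflammatory monocytes to Ccl2, Ccl7 and Ccl12 had the largest fold change of the 6 tested receptors. Its level in sham mice 1 to 4 was 0.397, 1.31, 0.857 and 0.362 CPM, and in BCAS mice 1 to 4 it was 40.4, 2.01, 24.0 and 6.69 CPM. Every BCAS mouse was above every sham mouse, though BCAS 2 was close to Sham 2. The means were 0.731 ± 0.446 CPM in sham and 18.3 ± 17.5 CPM in BCAS mice (SD, n = 4), and the log2 fold change was 4.65 (SE 0.94, adjusted p = 0.0091 by edgeR's quasi-likelihood test), a 25.0-fold difference with a 95% interval of 5.80 to 108. Without BCAS 1 the log2 fold change was 3.91 (adjusted p = 0.0083). By limma-voom it was 4.07 with an adjusted p of 0.0942.

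Ccr1 (ENSMUSG00000025804.5), a receptor for Ccl3, Ccl5 and related CC chemokines on myeloid cells, also rose, from a lower count. The sham mice gave 0.340, 0.872, 0.0571 and 0.542 CPM, and the BCAS mice gave 5.13, 0.617, 2.91 and 1.14 CPM. BCAS 2 lay within the sham range and the other 3 BCAS mice lay above it. The log2 fold change was 2.45 (SE 0.77, adjusted p = 0.0405 by edgeR's quasi-likelihood test), or 5.45-fold (95% interval 1.62 to 18.3). The call lay close to the threshold on adjusted p. Leaving out any mouse except BCAS 2 ended it, at adjusted p values of 0.0521 to 0.104 by the same test. The log2 fold change was then 1.80 without BCAS 1, 2.36 without BCAS 3 and 2.68 without BCAS 4. Without sham mice 1 to 4 it was 2.32, 2.95, 2.06 and 2.54. The call was also lost with limma-voom (2.43, adjusted p = 0.0822) and with limma on log2(CPM + 1) (1.09, adjusted p = 0.0583).

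Cxcr4 (ENSMUSG00000045382.6), the signalling receptor for Cxcl12 on leukocytes, vessels and progenitor cells, rose with a smaller error than Ccr1 and Ccr2. The sham mice had 0.681, 1.31, 1.37 and 2.17 CPM and the BCAS mice 24.4, 6.02, 21.9 and 8.92 CPM. The lowest BCAS mouse was above the highest sham mouse. The log2 fold change was 3.47 (SE 0.53, adjusted p = 0.0034 by edgeR's quasi-likelihood test), or 11.1-fold (95% interval 4.85 to 25.2), and Cxcr4 was called under every alternative tried, each mouse left out included.

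Cxcr3 (ENSMUSG00000050232.6), the receptor for the interferon-induced ligands Cxcl9, Cxcl10 and Cxcl11 on activated T and NK cells, was close to absent from sham cortex. It gave 2, 3, 0 and 1 counts in sham mice 1 to 4 and 247, 3, 88 and 41 counts in BCAS mice 1 to 4. BCAS 2 stayed within the sham range, and the other 3 BCAS mice were above it. The mean was 0.090 ± 0.079 CPM in sham and 4.49 ± 4.62 CPM in BCAS mice (SD, n = 4), with p = 0.0571 by the exact two-sided permutation test, which cannot go below 0.0286 here. The pooled counts, 6 against 379, gave a ratio of 54.0 per count sequenced, with a 95% interval of 24.6 to 148 that covers counting error only. BCAS 1 supplied 247 of the 379 counts, and the log2 ratio of mean CPM was 5.64 with all mice, 4.75 without BCAS 1 and 6.27 without Sham 2. The exact permutation p was 0.0286 without BCAS 2, 0.171 without Sham 2 and 0.2 without any of the other sham mice. With a sham mouse left out it could not reach 0.0286, since BCAS 1 and BCAS 3 in the smaller group give a larger difference. In those fits Cxcr3 passed the filter through the BCAS mice, and edgeR called it higher (adjusted p 0.0353 to 0.0442).

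Cxcr6 (ENSMUSG00000048521.8), the receptor for the membrane-bound ligand Cxcl16 on memory and tissue-resident T cells, gave 0, 3, 6 and 4 counts in sham mice and 359, 9, 93 and 44 counts in BCAS mice. The groups did not overlap, although BCAS 2, at 0.463 CPM, was near Sham 3, at 0.343 CPM. The exact two-sided permutation test of the mean CPM gave p = 0.0286, the smallest it can give, and p = 0.171 when any sham mouse was left out. The groups still did not overlap then, but BCAS 1 and BCAS 3 in the smaller group give a larger difference, so 0.0286 was out of reach. In those fits Cxcr6 passed the filter through the BCAS mice, and edgeR called it higher (adjusted p 0.0337 to 0.0475). The pooled counts, 13 against 505, gave a ratio of 33.2 (95% counting interval 19.3 to 62.9). BCAS 1 supplied 359 of the 505 counts, and the log2 ratio of mean CPM was 4.94 with all mice and 3.77 without BCAS 1. Without the filter on low counts, where 6.75% of 32537 genes were called higher, edgeR called both Cxcr3 (log2 fold change 5.55, adjusted p = 0.0042) and Cxcr6 (4.89, adjusted p = 0.0051).

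The 5 signalling receptors ordered the BCAS mice alike: BCAS 1 was highest, followed by BCAS 3, BCAS 4 and BCAS 2 for each of them. On the log2 CPM scale relative to the sham mean, BCAS 1 lay at 3.49 for Ccr1, 5.74 for Ccr2, 5.87 for Cxcr3, 4.13 for Cxcr4 and 5.89 for Cxcr6, and BCAS 2 at 0.64, 1.48, 0.50, 2.14 and 1.10 in the same order. The atypical receptors ordered the mice otherwise. For Ackr2 the order was reversed in part, with BCAS 4 highest and BCAS 1 lowest, for Ackr1 BCAS 2 was highest and BCAS 4 lowest, and for Ackr3 BCAS 4 was highest and BCAS 2 lowest. All 8 values come from the same libraries, so the shared order is a description of 4 mice.

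**Figure D2:**
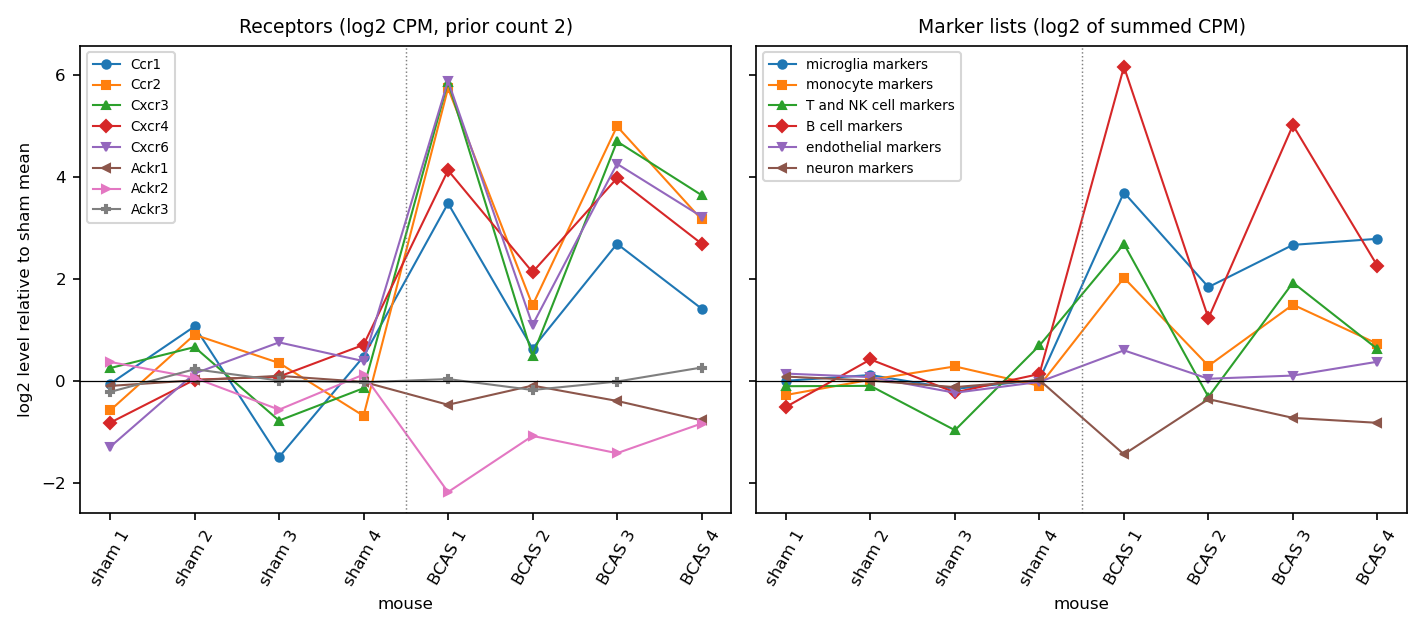
Log2 level relative to the sham mean (vertical axis) in each of the 8 mice (horizontal axis), for the 8 receptors on the left and for the summed level of 6 marker lists on the right. Lines join the values of one gene or list and imply no order among mice. BCAS 2 is the lowest BCAS mouse for the 5 signalling receptors and for the microglia, monocyte, T and NK cell and B cell lists.

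The summed levels of the monocyte, T and NK cell, B cell and neutrophil lists were also highest in BCAS 1 and lowest in BCAS 2 among the BCAS mice. Single markers did not all follow. Chil3 and S100a9 were higher in BCAS 3 (4.09 and 5.28 CPM) than in BCAS 1 (3.29 and 4.03 CPM). The summed level of 10 monocyte markers ran from 44.1 to 65.1 CPM in sham and from 65.6 to 217 CPM in BCAS mice. Vcan and Ace, which other cells of the brain also express, made up most of the sham level, at means of 24.3 and 23.4 CPM, with log2 fold changes of 0.71 and 0.47 and no call, and Ace was highest among sham mice in Sham 3, at 38.5 CPM. Of these markers, 5 were tested and 3 were called higher, among them Ly6c2, the surface antigen of inflammatory monocytes (log2 fold change 6.48, adjusted p = 0.0084 by edgeR's quasi-likelihood test). Ly6c2 had 3, 2, 0 and 1 counts in sham mice and passed the filter through the BCAS mice, as did Cd8a, Gzma and Lck among the T and NK cell markers, so the numbers called in these lists are descriptions and no support. S100a4 had 0 to 3 counts in all libraries. Of 16 T and NK cell markers, 6 were tested and 4 were called higher, with the coreceptor gene Cd8a at 5.77 (adjusted p = 0.0062). Their summed level ran from 8.79 to 27.8 CPM in sham and from 13.8 to 111 CPM in BCAS mice, so it overlapped. The highest sham sum was that of Sham 4, where the transcription factor gene Eomes had 212 counts against 1 to 25 in the other sham mice. Ncr1, Klrb1c and Nkg7, listed with it for NK cells, had 1, 0 and 0 counts in that library. The next sham sum was 16.1 CPM, still above BCAS 2. The most abundant of them, the T cell receptor constant gene Trbc2, was not called (-0.67, adjusted p = 0.134). The NK cell genes Klrb1c and Prf1 were at 0 in all sham mice, and the T cell receptor complex gene Cd3e gave 1 to 3 counts in sham and 139, 5, 67 and 27 counts in BCAS mice 1 to 4.

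Other lists moved as well. All 10 microglia markers were called higher, and their summed level ran from 357 to 431 CPM in sham and from 1426 to 5160 CPM in BCAS mice. Of 6 B cell markers, 2 (Cd79b and Jchain) were tested, both were called higher, and both passed the filter through the BCAS mice, with sums of 1.08 to 2.06 CPM in sham and 3.60 to 110 CPM in BCAS mice. The immunoglobulin joining gene Jchain alone reached 87.2 CPM in BCAS 1. All 6 border macrophage markers were tested and 4 were called higher, led by Ms4a7 (4.65, adjusted p = 0.0084), which like Cbr2 passed through the BCAS mice, with sums of 13.99 to 16.9 CPM in sham and 25.1 to 88.7 CPM in BCAS mice. Of 7 neutrophil markers, only Csf3r was tested and it was called higher (4.07, adjusted p = 0.0015 by edgeR). Its sham mean was 7.12 CPM, against at most 0.175 CPM for the other listed markers. The defining marker Ly6g was at 0 in every library. Cxcr2, the neutrophil receptor, had 2, 0, 0 and 2 counts in sham and 71, 0, 65 and 4 counts in BCAS mice. Of 6 dendritic cell markers, all tested, 3 were called higher, with sums of 21.3 to 25.4 CPM in sham and 38.8 to 98.5 CPM in BCAS mice. Itgax, an integrin gene that activated microglia also express, passed the filter through the BCAS mice as Clec9a and Clec10a did, and went from a mean of 0.428 to 52.4 CPM, whereas Zbtb46 (-0.43) and Flt3 (-0.14), which mark the dendritic lineage, were not called. Outside the blood lineages, 4 of 9 pericyte and fibroblast markers were called higher, led by the collagen gene Col1a1 (3.27), with sums of 270.1 to 313 CPM in sham and 342 to 1016 CPM in BCAS mice, highest in BCAS 1 and lowest in BCAS 2. The part of each cell type in the receptor levels was not tested.

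The atypical receptors came next. Ackr2 (ENSMUSG00000044534.8), a scavenger of inflammatory CC chemokines such as Ccl2, Ccl3 and Ccl5, was the only 1 of the 6 tested receptors called lower. The sham mice had 5.67, 4.55, 2.91 and 4.76 CPM and the BCAS mice 0.876, 2.01, 1.56 and 2.39 CPM, or 51 to 100 counts against 20 to 44 counts. Every BCAS mouse was below every sham mouse. Mean levels were 4.47 ± 1.15 CPM in sham and 1.71 ± 0.651 CPM in BCAS mice (SD, n = 4), and the log2 fold change was -1.39 (SE 0.33, adjusted p = 0.0164 by edgeR's quasi-likelihood test), so the BCAS level was 0.381 of the sham level (95% interval 0.227 to 0.640). Without Sham 1 the log2 fold change was -1.26 and the adjusted p 0.0535, which ended the call. Without Sham 3, the library with choroid plexus transcripts, it was -1.56 (adjusted p = 0.0209).

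Ackr1 (ENSMUSG00000037872.5), a receptor of venular endothelium and red blood cells that binds many CC and CXC chemokines, was the most abundant of the 8. It stood at 34.4, 37.2, 39.5 and 36.4 CPM in sham and at 26.6, 34.6, 28.1 and 21.5 CPM in BCAS mice. BCAS 2 fell inside the sham range and the other 3 BCAS mice were below it. The log2 fold change was -0.41 (SE 0.14, 95% interval -0.72 to -0.10) with an adjusted p of 0.0462 by edgeR's quasi-likelihood test, which passed the p threshold while the fold change did not reach its own. Leaving out any mouse except BCAS 2 raised the adjusted p to between 0.0789 and 0.0979, at log2 fold changes from -0.45 without Sham 1 to -0.31 without BCAS 4, and scaling by library size alone gave -0.33 (adjusted p = 0.0858). Cadm3, with which it shares exon bases, stood at 522 ± 34.1 CPM in sham and 341 ± 132 CPM in BCAS mice (log2 fold change -0.62, adjusted p = 0.0846), and the part of Cadm3 reads in the Ackr1 level was not tested.

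Markers of the cells known to carry Ackr1 were not called lower. Of 8 markers of venular and activated endothelium, 6 were tested and 3 were called higher, led by the adhesion gene Icam1 (3.16, adjusted p = 0.0037), with sums of 82.5 to 111 CPM in sham and 146 to 353 CPM in BCAS mice. Slc38a5, a venular transporter gene, had -0.23 (5.39 CPM in sham and 4.57 CPM in BCAS mice, adjusted p = 0.520), and Lrg1 (1.25) and Nr2f2 (0.62) were not called either. None of 10 endothelial markers was called in either direction, at a median log2 fold change of 0.34 and sums of 311 to 404 CPM in sham and 377 to 555 CPM in BCAS mice. Pecam1 and Cdh5, junction genes of endothelium, had adjusted p values under 0.05 with log2 fold changes of 0.58 and 0.87. Of 6 erythroid markers, 5 were tested and 0 were called by edgeR, although Hbb-bs and Hba-a1, globin genes of red blood cells, had adjusted p values under 0.05 with log2 fold changes of 0.58 and 0.41.

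Ackr3 (ENSMUSG00000044337.5), the receptor that binds and clears Cxcl12, showed no difference beyond the spread between mice. The sham mice had 9.76, 13.3, 11.4 and 11.1 CPM and the BCAS mice 11.7, 10.03, 11.3 and 13.6 CPM. The groups covered the same range. The log2 fold change was 0.03 (SE 0.14, adjusted p = 0.882 by edgeR's quasi-likelihood test), and its 95% interval of -0.29 to 0.35 bounds the difference to between 0.818-fold and 1.27-fold. Its sign turned without Sham 1 (-0.045) or without BCAS 4 (-0.053).

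**Figure D3:**
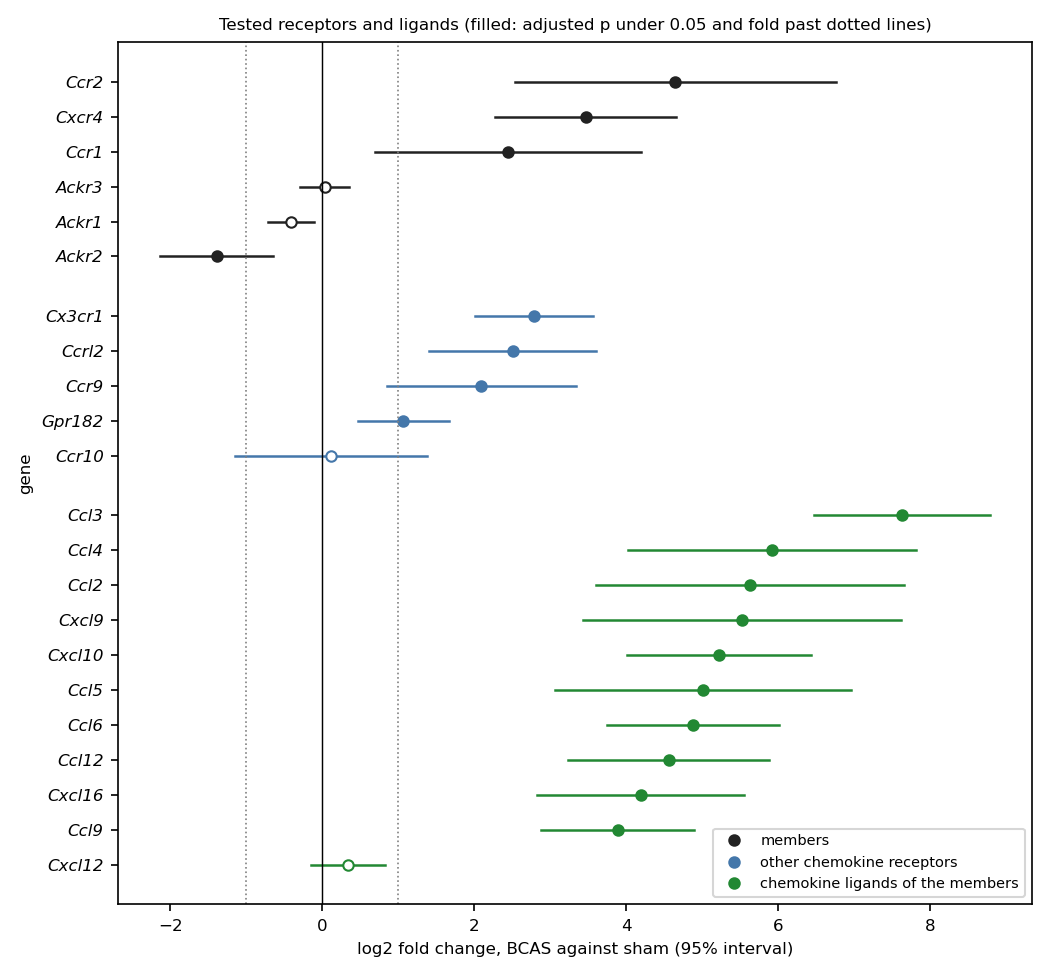
Log2 fold change of BCAS against sham with its 95% interval (horizontal axis) for the tested members (black), 5 of the 6 tested other chemokine receptors (blue) and ligands of the members (green), 1 gene per line. Filled points passed both thresholds, and dotted lines mark the fold threshold. Ackr2 is the only filled point on the lower side, and Ackr1, Ackr3, Ccr10 and Cxcl12 are the open points.

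Levels between receptors were compared per exon length, as fragments per 1000 exon bases and 1000000 counts (FPKM). In sham cortex the order of means was Ackr1 (26.3 FPKM), Ackr3 (3.41), Ackr2 (1.43), Cxcr4 (0.765), Ccr1 (0.160), Ccr2 (0.108), Cxcr6 (0.0998) and Cxcr3 (0.0521). The 3 atypical receptors thus headed the list, though the part of Cadm3 reads in the Ackr1 level was not tested. The ranges over mice of Ackr2 and Cxcr4 overlapped, although Ackr2 was above Cxcr4 in each of the 4 mice, and among Ccr1, Ccr2, Cxcr6 and Cxcr3 each neighbour overlapped the next. In BCAS cortex the order was Ackr1 (19.7 FPKM), Cxcr4 (8.46), Ackr3 (3.48), Cxcr6 (3.05), Ccr2 (2.70), Cxcr3 (2.59), Ccr1 (0.864) and Ackr2 (0.547). Only Ackr1 was separated from its neighbour there, since the ranges of every other neighbouring pair overlapped. Ackr2 went from the third place to the last.

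Receptors that share a ligand or are known from the same cells were then compared within each mouse, as the difference of their log2 CPM. The sharpest contrast was between both receptors of Cxcl12. Cxcr4 minus Ackr3 ran at -3.64, -3.25, -2.96 and -2.30 in sham mice 1 to 4 and was higher in BCAS mice 1 to 4, at 1.06, -0.73, 0.95 and -0.61, without overlap. The mean moved by 3.21 (exact two-sided permutation p = 0.0286, the smallest possible, and 0.143 after adjustment over the 5 pairs compared). Ackr1 minus Ackr2 moved by 0.95, from 3.05 ± 0.48 to 4.00 ± 0.68 (SD, n = 4, exact permutation p = 0.0571, adjusted 0.143), and Ccr1 minus Ccr2 by -1.79 (exact permutation p = 0.0857, adjusted 0.143). Ccr2 minus Cx3cr1, the fractalkine receptor of microglia, moved by 1.22 (exact permutation p = 0.171, adjusted 0.214), with -4.22, -6.59, -3.96 and -5.94 in the BCAS mice. Cxcr3 minus Cxcr6 moved by 0.06, with an SD of 1.33 among sham mice (exact permutation p = 1). No pair passed the adjusted threshold, which a single pair at the smallest possible p cannot reach among 5.

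**Figure D4:**
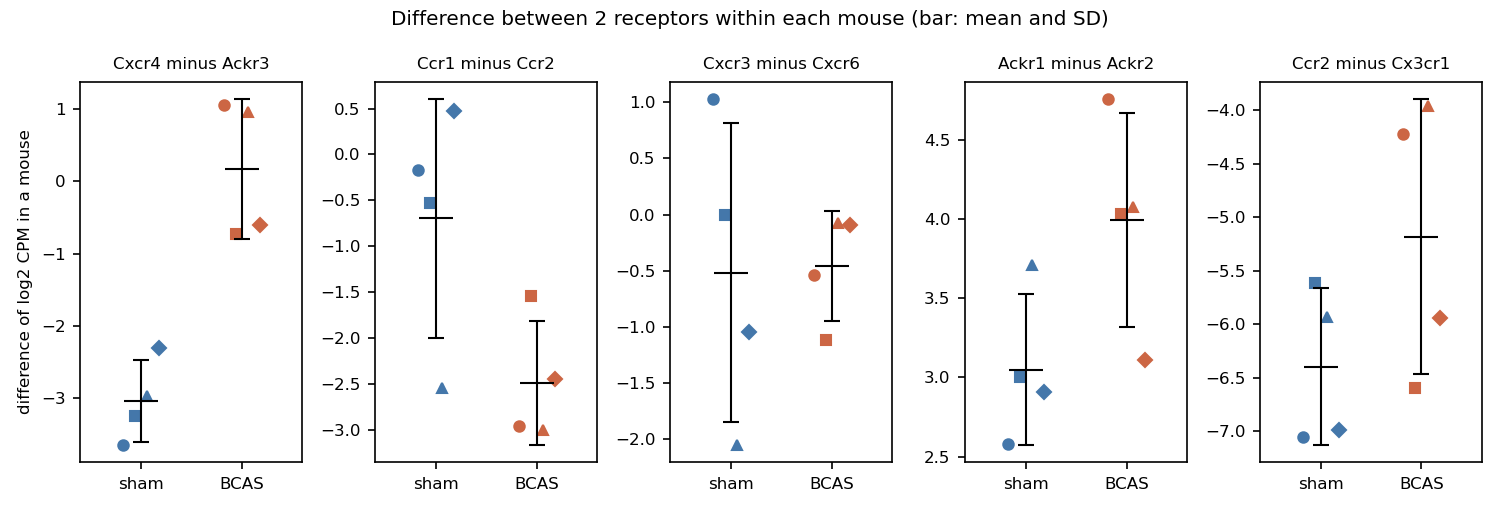
Difference of log2 CPM between 2 receptors within each mouse (vertical axis, a separate scale for each pair that does not start at 0) for 4 sham (blue) and 4 BCAS (red) mice, with a marker shape for each mouse number as in the plot of levels and a bar for the mean and SD. Cxcr4 minus Ackr3 lies between -3.64 and -2.30 in sham and between -0.73 and 1.06 in BCAS mice.

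Of the 17 other chemokine receptors, 6 were tested, and 5 of them were called higher and 0 lower, with a median log2 fold change of 2.30. Ccr9, with 12, 6, 3 and 1 counts in sham mice, passed the filter through the BCAS mice. Cx3cr1 was the most abundant, at 63.7 ± 5.37 CPM in sham and 438 ± 231 CPM in BCAS mice (SD, n = 4), and had the largest fold change (2.78, SE 0.35, adjusted p = 0.0020 by edgeR's quasi-likelihood test). Others called higher were Ccrl2, an atypical receptor of activated myeloid cells, at 2.51, Ccr9 at 2.10 and Gpr182, an endothelial scavenger of chemokines, at 1.07. Ccr10, a skin-homing receptor, had 0.12 and an adjusted p of 0.885. Among untested neighbours in the cluster, Xcr1, a receptor of cross-presenting dendritic cells, gave 0 to 2 counts in sham and 46, 2, 20 and 7 counts in BCAS mice, Ccr3 gave 0 to 2 in sham and 12, 0, 1 and 2 in BCAS mice, and Ccr1l1 had at most 1 count in any library. Fyco1, around Cxcr6, had a log2 fold change of 0.55 (adjusted p = 0.0071).

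Of 14 ligands of the 8 receptors, 11 were tested, 10 were called higher and 0 lower, at a median log2 fold change of 5.01. Ccl2, Ccl3, Ccl4, Ccl5, Ccl12, Cxcl9 and Cxcl10 had at most 11 counts in any sham mouse and passed the filter through the BCAS mice, so the count and the median are descriptions and no support. With at least 10 counts required in every library, 3 ligands were called higher. Ccl3, a ligand of Ccr1, had the largest, 7.64 (SE 0.51, adjusted p = 0.0009 by edgeR's quasi-likelihood test), with 2, 2, 0 and 2 counts in sham and 664, 204, 319 and 349 counts in BCAS mice. Ccl2, the main ligand of Ccr2, had 5.63, Cxcl9 and Cxcl10, ligands of Cxcr3, had 5.53 and 5.22, and Cxcl16, the ligand of Cxcr6, had 4.19. Ccl8 was at 0 in all sham mice and gave 182, 5, 106 and 22 counts in BCAS mice. The exception was Cxcl12, the ligand shared by Cxcr4 and Ackr3. It was the most abundant ligand and was not called, at 99.1 ± 15.4 CPM in sham and 125 ± 39.3 CPM in BCAS mice (log2 fold change 0.34, SE 0.22, 95% interval -0.15 to 0.83, adjusted p = 0.250). Within the Cxcl12 axis, then, the signalling receptor rose, and neither the ligand nor the atypical receptor was called.

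Genes that carry the signal of these receptors divided. All 16 were tested, 6 were called higher and 0 lower, and the median log2 fold change was 0.80. Rgs1, which shortens G protein signalling in leukocytes, had the largest, 5.72, with 4, 0, 0 and 2 counts in sham and 217, 28, 88 and 79 counts in BCAS mice, through which it passed the filter. With at least 10 counts required in every library, 5 were called higher. Dock2 (3.92) and Rac2 (3.90), which drive actin at the front of migrating leukocytes, were called as well, as were the phosphoinositide kinase subunits Pik3cg (3.14) and Pik3r5 (2.41) and the phospholipase Plcb2 (2.32). Of the more widely expressed genes, the inhibitory G protein subunit Gnai2 had 0.91 and Gnai3 had 0.73, whereas Gnai1 had the smallest value, -0.68 (adjusted p = 0.0145). The arrestins parted likewise, with 0.87 for Arrb2 and -0.37 (adjusted p = 0.0364) for Arrb1, the most abundant gene of the list, and the receptor kinase Grk2 had -0.41 (adjusted p = 0.0258). These 6 had adjusted p values under 0.05 and fold changes short of the threshold.

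The genes whose levels over the 8 libraries were most like each tested receptor were found by the root-mean-square (RMS) difference of log2 CPM relative to the sham mean. Nearest to Ccr2 were H2-Ab1 (RMS 0.241), Cd74 and H2-Eb1, genes of antigen presentation by class II molecules. Nearest to Cxcr4 were Sash3 (0.243), Lcp2 and Slamf6, genes of lymphocyte signalling, and nearest to Ccr1 were Ccnb1 (0.291), Kcnn4 and Sept1. Nearest to Ackr2 were Gm9899 (0.160), Hs3st2 and Capn12, all with log2 fold changes between -1.34 and -1.18. Ackr1 was nearest to Kitl (0.0849), Zfp13 and Gm44053, and Ackr3 to Polr2f (0.0856), Plekha8 and Zfp536. These likenesses describe 8 shared libraries.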

How the data were processed

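RNA was taken from the right cortex of 4 sham and 4 BCAS mice, 1 mouse per library, and samples were grouped by their titles. The authors trimmed the reads with Trim Galore, aligned them to mm10 with HISAT2, sorted them with SAMtools 1.9 and deposited unnormalised counts per gene from featureCounts. The headers name featureCounts 2.0.1 and GENCODE vM20 with no strand option, the submitters' notes featureCounts 1.6.3, and the methods RefSeq genes. Reads of overlapping genes on either strand therefore cannot be told apart.

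From the deposited counts, edgeR 4.0.16 in R 4.3.3 was run with TMM normalisation (factors 0.949 to 1.05), the filterByExpr filter (minimum count 10, minimum total 15) and the quasi-likelihood test of BCAS against sham without covariates, with Benjamini-Hochberg adjustment over 17136 genes. A gene was called where its adjusted p was below 0.05 and its log2 fold change lay beyond 1 in either direction. Levels are TMM-normalised CPM, and FPKM used the exon length in the tables. Single values and paired differences (log2 CPM, prior count 2) went through exact two-sided permutation tests, with 70 arrangements of the mice. Intervals of pooled counts cover counting error only. The scripts were tested on simulated data. Symbols were matched for 54723 of 54752 identifiers, and all 8 receptors had a RefSeq upstream window. Windows of 4 receptors reach into the annotated gene and are not printed.

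The receptors, lists and tests were chosen with earlier results of these data known. Named genes are the receptors, in each list the most abundant gene and those with the largest and smallest fold change, the 3 genes most like each receptor, those in the paired differences, and those that overlap or neighbour a receptor. Other list members and markers were named after their values were seen. Single values of a few list members are not reported here. Alternatives were other scalings (DESeq2's size factors, upper quartile, library size alone), filters (at least 10 counts in every library, or none beyond 1 count in total), the DESeq2 1.42.0 test, limma 3.58.1 (voom, and log2(CPM + 1)), robust edgeR, the replicate number as a block, each mouse left out, and prior counts of 0.5 and 5. Figures were drawn with matplotlib 3.10.9.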

Additional observations from a re-analysis of the deposited data

How the results depend on the processing

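Cxcr4 was called under every alternative, with log2 fold changes of 3.16 to 3.76 when a mouse was left out. Ccr2 kept its call except with limma-voom (4.07, adjusted p = 0.0942), and ranged from 3.91 to 5.06 with a mouse left out. Its lowest value was 2.88, with limma on log2(CPM + 1). Ccr1 lost its call with limma-voom (2.43), limma on log2(CPM + 1) (1.09) and all but 1 of the omissions of a mouse (1.80 to 2.95). Ackr1 passed the p threshold in the reported fit and lost it with library size alone (-0.33), no filter (-0.42, adjusted p = 0.0599) and at least 10 counts in every library (-0.39, adjusted p = 0.0506), and ranged from -0.52 to -0.31 with a mouse left out. With a mouse left out, Ackr2 ranged from -1.60 to -1.15 and Ackr3 from -0.05 to 0.11, where Ackr3 turned sign without Sham 1 (-0.045) or BCAS 4 (-0.053).

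The number of members called higher was 5 without the filter, 1 at a minimum of 10 counts in every library, where Ccr1 and Ccr2 were not tested, and 1 with limma-voom, and ran from 2 to 5 with a mouse left out, 5 being without BCAS 2. The number called lower ran from 0 (without Sham 1) to 1. Other receptors called higher were 8 without the filter and 3 with limma on log2(CPM + 1), and 4 to 6 with a mouse left out. Ligands called higher were 3 at a minimum of 10 counts in every library, which most ligands do not reach in sham mice, and 10 to 12 with a mouse left out. With a mouse left out, coupling genes called higher were 6 to 8 and all genes called 1644 to 2967. At a minimum of 10 counts in every library these were 5 and 1577, and limma on log2(CPM + 1) called 1583 genes. Library size alone moved the median log2 fold change of all genes to 0.08.

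With a mouse left out, the log2 ratio of mean CPM ranged from 4.75 to 6.27 for Cxcr3 and from 3.77 to 5.36 for Cxcr6. The exact permutation p for Cxcr3 was 0.0286 without BCAS 2 (6.06), 0.171 without Sham 2 and 0.2 without any other sham mouse. For Cxcr6 it was 0.171 without any of the sham mice. The smallest p was out of reach there, because BCAS 1 and BCAS 3 in the smaller group give a larger difference. With a sham mouse left out, both genes passed the filter through the BCAS mice and edgeR called both higher (adjusted p 0.0337 to 0.0475). Cxcr3 minus Cxcr6 turned to -0.045 at a prior count of 5 and ranged from -0.45 to 0.58 with a mouse left out, negative without Sham 3 (-0.45), Sham 4 (-0.12), BCAS 3 (-0.07) or BCAS 4 (-0.06). The other paired differences kept their sign, at 2.91 to 3.504 for Cxcr4 minus Ackr3, -2.41 to -1.40 for Ccr1 minus Ccr2, 0.69 to 1.24 for Ackr1 minus Ackr2 and 0.81 to 1.69 for Ccr2 minus Cx3cr1. The cause of these changes was not tested where no construction of the alternative shows it.

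Sham and BCAS mice share replicate numbers but no stated pairing, and the deviations of mice with the same number correlated at -0.05, -0.10, -0.01 and 0.00. With the replicate number as a block, 1809 genes were called, Ccr1 lost its call (2.20, adjusted p = 0.119) and Ackr1 its p (-0.43, adjusted p = 0.0585), and the calls of Ccr2, Cxcr4 and Ackr2 held.

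Counts of Cxcr3, Cxcr6 and Ccr1 in sham mice are too low to fix their fold changes closely.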
